A study of Mus musculus with 6 samples.

Results

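Neurotrophins and the GDNF family ligands are secreted survival factors, and 8 genes of these systems were followed here in ribosome-bound mRNA from mouse astrocytes. The genes are the ligands Bdnf and Ntf3, the neurotrophin receptors Ntrk2, Ntrk3 and Ngfr, and the GDNF family receptor components Ret, Gfra1 and Gfra2. They were taken by symbol, and all 8 were found among the 23955 genes in the files. The series compared diencephalon with cortical grey matter, with 3 libraries per region and the pooled tissue of 3 mice per library. All mice were 3 months old, of either sex, on the C57BL/6 strain, with the genotype Slc1a3 +/- GFP+ Rpl22HA fl/fl, so both regions carried the same alleles. In these mice the Slc1a3 locus, which encodes an astrocytic glutamate transporter, drives the tamoxifen-inducible recombinase CreERT2, and 3 oral doses of tamoxifen starting at 9 weeks switched the ribosomal protein Rpl22 to a haemagglutinin-tagged version. Tissue around the third ventricle was left out of the diencephalic samples, and meninges and white matter were removed from the cortical ones. Markers of these tissues were still counted: meningeal and fibroblast markers summed to 4542 to 8282 CPM (counts scaled to a common library size by TMM) in cortical grey matter and 832 to 1262 CPM in diencephalon, and ependymal and choroid plexus markers to 28.6 to 66.0 and 144 to 177 CPM. Any cell in which the Slc1a3 locus is active can carry the tag.

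As background, the neurotrophins BDNF and NT-3 bind the receptor tyrosine kinases TrkB (Ntrk2) and TrkC (Ntrk3), and all neurotrophins bind the death-domain receptor p75 (Ngfr). GDNF and neurturin bind the membrane-anchored co-receptors GFRα1 (Gfra1) and GFRα2 (Gfra2), which have no kinase and signal through the receptor tyrosine kinase RET or through other partners such as NCAM. Adult astrocytes are known for the truncated form of TrkB, which lacks the kinase domain, while the full-length kinase is known mainly from neurons.

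Ntrk2, Ntrk3 and Ret each have transcripts in the files whose coding sequences end differently, and the deposited gene values add these forms up. The forms are shown because they decide what a gene value can stand for: a receptor with or without a kinase, or RET with a long or a short tail. The lines give 5′ to 3′ coding sequence from GENCODE vM21 (GRCm38), matched to the files by RefSeq accession, with the last 30 shared bases in lower case and the bases of that form alone in capitals, cut at 90.
Ntrk2 full-length kinase form: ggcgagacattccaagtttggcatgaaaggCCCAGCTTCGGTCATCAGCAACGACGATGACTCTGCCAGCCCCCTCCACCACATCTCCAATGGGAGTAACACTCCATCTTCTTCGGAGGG
Ntrk2 truncated form: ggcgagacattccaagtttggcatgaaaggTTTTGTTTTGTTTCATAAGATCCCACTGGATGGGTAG
Ntrk3 full-length kinase form: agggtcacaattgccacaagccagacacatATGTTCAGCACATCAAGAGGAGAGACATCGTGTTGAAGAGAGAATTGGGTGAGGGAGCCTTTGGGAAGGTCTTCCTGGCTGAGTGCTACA
Ntrk3 truncated form: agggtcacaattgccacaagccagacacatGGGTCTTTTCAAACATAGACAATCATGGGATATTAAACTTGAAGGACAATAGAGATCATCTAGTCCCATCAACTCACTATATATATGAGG
Ret long-tailed form: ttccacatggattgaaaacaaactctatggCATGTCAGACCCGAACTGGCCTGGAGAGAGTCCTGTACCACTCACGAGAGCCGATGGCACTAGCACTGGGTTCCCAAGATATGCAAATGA
Ret short-tailed form: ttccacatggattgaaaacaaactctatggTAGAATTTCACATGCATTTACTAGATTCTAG
The truncated Ntrk2 form shares its first 1394 coding bases with the full-length form and then has 37 bases of its own, stop codon included, where the full-length form has 1072. In Ntrk3 the forms part after 1585 coding bases, with 254 bases in the truncated and 893 in the full-length form. The Ret forms part after 3191 bases and differ in tails of 31 and 157 bases.

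Expected counts summed to between 1733145 and 2334237 per library, and 10568 genes passed the filter on low counts. Of these, 1574 (14.9%) were higher and 1560 (14.8%) lower in diencephalon (edgeR quasi-likelihood fit, p under 0.05 after Benjamini-Hochberg adjustment). On the TPM scale, which divides counts by gene length, the split was 2118 higher and 958 lower, and the median gene lay 0.22 higher on the log2 scale. All 20 listed astrocyte markers were detected, with sums of 27259 to 31348 CPM in diencephalon and 36095 to 44356 CPM in cortical grey matter. Of the 20, 8 were lower in diencephalon, 2 were higher, Slc4a4 and Gpr37l1, and 10 did not pass, with a median log2 difference of -0.11. The sum was dominated by a few abundant genes, among them Slc1a2, with means of 8960 against 16213 CPM, and Glul, with 2726 against 6121 CPM. Pan-neuronal markers summed to 2327 to 2448 CPM and 3260 to 4472 CPM, so neuronal transcripts were counted in both regions. Cortical grey matter replicate 3 stood apart: its chi-square divided by degrees of freedom was 6.81 and 5.91 against the other cortical libraries, beside 2.59 between those. Labels name separate pools of mice as replicates, and p-values measure the spread between these pools.

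Of the 8 genes, 6 passed the count filter: Ntrk2, Ntrk3, Bdnf, Gfra1, Gfra2 and Ret. Ret and Ntrk2 were higher in diencephalon, none was lower, and the other 4 did not pass the test. Ret passed the filter through its diencephalic libraries alone, so it had to differ, and the count of 2 in 6 is not read against the 14.9% of all genes. The median log2 difference of the 6 was 0.09, beside 0.01 over all tested genes. The diencephalic libraries lay above every cortical one for the same 2 genes. Over all tested genes 21.8% were arranged in this way and 20.8% in the opposite one, and nothing is read from the count, since it includes Ret.

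**Figure D1:**
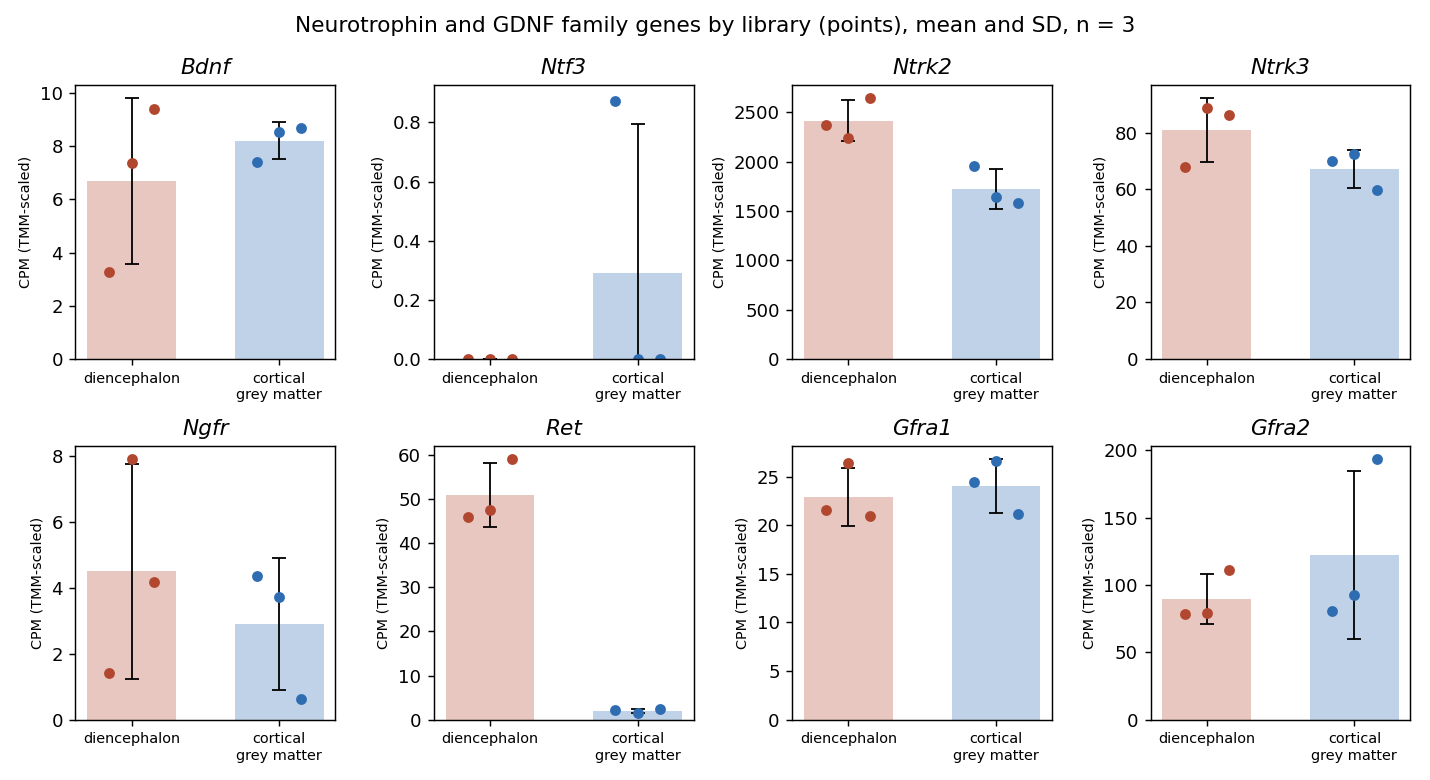
Level of each gene in CPM (linear axis from 0, its own scale per panel) by region, with points for libraries, bars for the mean and error bars for the SD (n = 3). The diencephalic points of Ret (45.8 to 59.1 CPM) and Ntrk2 (2234 to 2644 CPM) lie above all cortical points, and the points of the other genes overlap between regions or lie near 0.

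Ret, the signalling receptor of the GDNF family, was present in diencephalon and nearly absent from the cortical libraries. It had 98, 90 and 113 counts in diencephalon replicates 1 to 3 and 5, 3 and 4 counts in cortical grey matter replicates 1 to 3. Scaled, these were 45.8, 47.5 and 59.1 CPM against 2.18, 1.6 and 2.48 CPM. All 3 diencephalic libraries were high and all 3 cortical ones low, with no overlap. The level was 23.7-fold higher in diencephalon (95% interval 15.2 to 37.1), a log2 difference of 4.57 ± 0.31 (SE, edgeR adjusted p = 3.75e-10). A difference beyond 1.5-fold also passed (edgeR glmTreat adjusted p = 1.79e-09), as did 4.58% of all tested genes upward. Ret passed the count filter through diencephalon alone, so both p-values are a description, and no comparison is drawn from that share. The ratio of the summed counts, 301 to 12, was 24.4 with an exact 95% counting interval of 13.7 to 47.7, which covers counting error only. Ret kept its call under every alternative fit and without any 1 of the 6 libraries, which carries the same limit.

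The rise of Ret went along with markers of several other cell types, with the largest fold among the lists for subcortical neurons. The summed level of 16 such markers was 550, 643 and 610 CPM in diencephalon and 58.0, 55.9 and 62.7 CPM in cortical grey matter, 10.2-fold higher (exact permutation p = 0.1, two-sided, the smallest that 3 against 3 can give). Of the 16, 6 passed the count filter, Pmch through its diencephalic libraries alone, so the number called is not read. None of the 16 was at 0 in all libraries, but several were near it. Summed counts in diencephalon and cortical grey matter were 1 and 0 for Avp, 2 and 0 for Pomc, 2 and 1 for Oxt. For Agrp they were 0 and 2, the other way. Most of the diencephalic sum came from Slc17a6, Lhx9 (160 CPM), Prkcd (99.6 CPM) and Rgs16 (65.3 CPM), so the fold stands for few genes. Among the markers, Slc17a6, the vesicular glutamate transporter of subcortical neurons, was at 237 ± 60.0 against 16.4 ± 1.42 CPM (SD, n = 3 each). Ependymal and choroid plexus markers summed 3.43-fold higher in diencephalon, with Ttr the largest part, at 81.4 against 5.61 CPM. Kcnj13 in that list was lower, at 5.9 against 28.5 CPM. Oligodendrocyte markers summed 2.23-fold higher and inhibitory neuron markers 1.39-fold higher, although Sst in the inhibitory list was lower, at 15.4 against 58.9 CPM. Meningeal and fibroblast markers summed 5.91-fold lower, cortical excitatory neuron markers 4.6-fold lower and vascular markers 2.09-fold lower. The vascular difference rested largely on Vtn, at 32.4 against 132 CPM, and the other tested vascular genes did not pass. The astrocyte marker sum was 1.41-fold lower, beside a median log2 difference of -0.11 over its 20 genes. The part of these cells in the level of Ret was not tested, and in such pooled tissue more cells of a type and more RNA per cell cannot be told apart. The series has no input or untagged control library, so RNA from cells without the tag cannot be told apart from tagged RNA either.

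The genes whose levels over the 6 libraries were most like those of Ret were sought among 8767 other tested genes with a mean of at least 10 CPM. The nearest was the LIM homeobox gene Lhx9 (root mean square distance of 0.24 in centred log2 CPM), followed by Slc17a6 (0.25) and the nicotinic receptor subunit gene Chrnb4 (0.34). Lhx9 was at 160 ± 15.3 against 6.38 ± 0.17 CPM. Both Lhx9 and Slc17a6 are on the list of subcortical neuron markers. They are also the largest parts of its sum in diencephalon, so their nearness to Ret is not separate from the fold of that list. Any gene with a large regional difference comes near Ret by this measure.

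**Figure D2:**
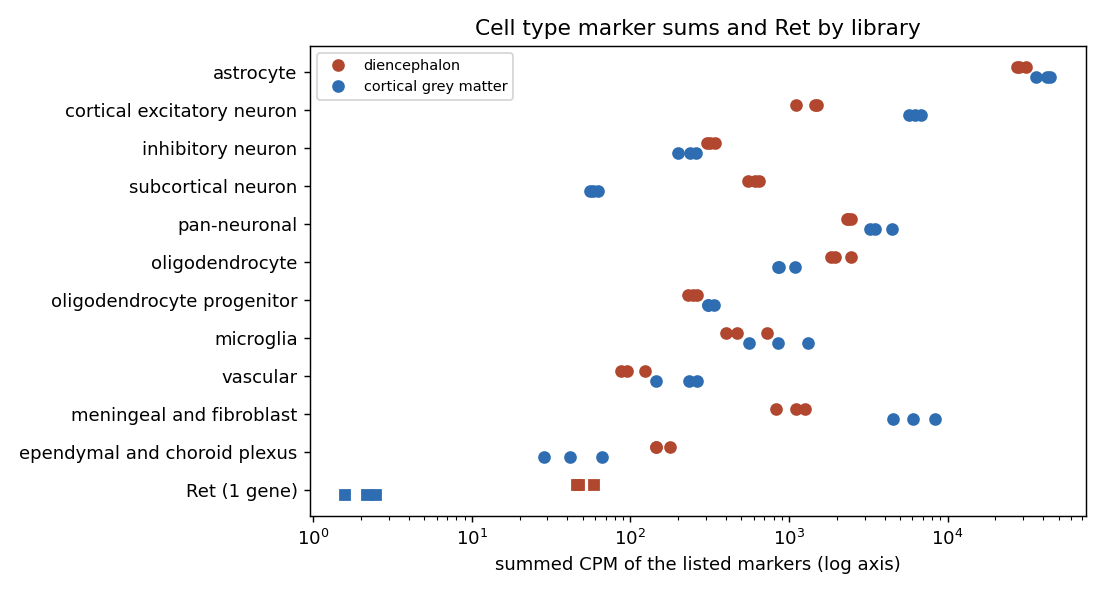
Summed CPM (log axis) of each cell type marker list by library, with Ret as squares in the bottom row. Subcortical neuron markers (550 to 643 against 55.9 to 62.7 CPM) and Ret are higher in diencephalon, as are oligodendrocyte, ependymal and choroid plexus and inhibitory neuron markers, while meningeal, vascular, astrocyte, oligodendrocyte progenitor, pan-neuronal and cortical excitatory neuron markers are higher in cortical grey matter and microglial markers overlap.

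Gfra1, the co-receptor that binds GDNF, did not follow Ret. It was at 21.5, 26.4 and 20.9 CPM in diencephalon and 24.4, 26.6 and 21.1 CPM in cortical grey matter, and the libraries of the regions overlapped over nearly their whole range. The difference was -0.08 ± 0.23 on the log2 scale (edgeR adjusted p = 0.837), and the 95% interval of the fold ran from 0.683 to 1.32. On the TPM scale the log2 difference was 0.10, or -0.12 relative to the median gene (limma adjusted p = 0.803). The ratio of Gfra1 to Ret within a library, on the TPM scale, was 0.765, 0.812 and 0.567 in diencephalon. In cortical grey matter the same ratio was 18.8, 27.2 and 13.9. The regions did not overlap in this ratio (exact permutation p = 0.1, two-sided, the smallest possible), so transcripts of the co-receptor were fewer than those of Ret in each diencephalic library and well above them in each cortical one. The cortical ratios rest on 3 to 5 Ret counts per library.

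Gfra2, the co-receptor that binds neurturin, was the more abundant of the co-receptors in every library. It was at 78.6, 79.1 and 111 CPM in diencephalon and 80.7, 92.6 and 194 CPM in cortical grey matter. The highest value belonged to cortical grey matter replicate 3, and the other 5 libraries overlapped between the regions. The log2 difference was -0.43 ± 0.37 (edgeR adjusted p = 0.451), with a 95% interval of the fold from 0.393 to 1.40, and without cortical grey matter replicate 3 it was 0.05 (edgeR adjusted p = 0.867). That library also had the highest cortical sums of pan-neuronal markers, with 4472 CPM against 3260 and 3505, and of microglial markers, with 1318 CPM against 562 and 847. The part of these cells in the Gfra2 level was not tested. The ratio of Gfra1 to Gfra2 on the TPM scale was 0.204, 0.247 and 0.138 in diencephalon and 0.234, 0.215 and 0.0818 in cortical grey matter, with overlap of the regions (exact permutation p = 0.7, two-sided).

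**Figure D3:**
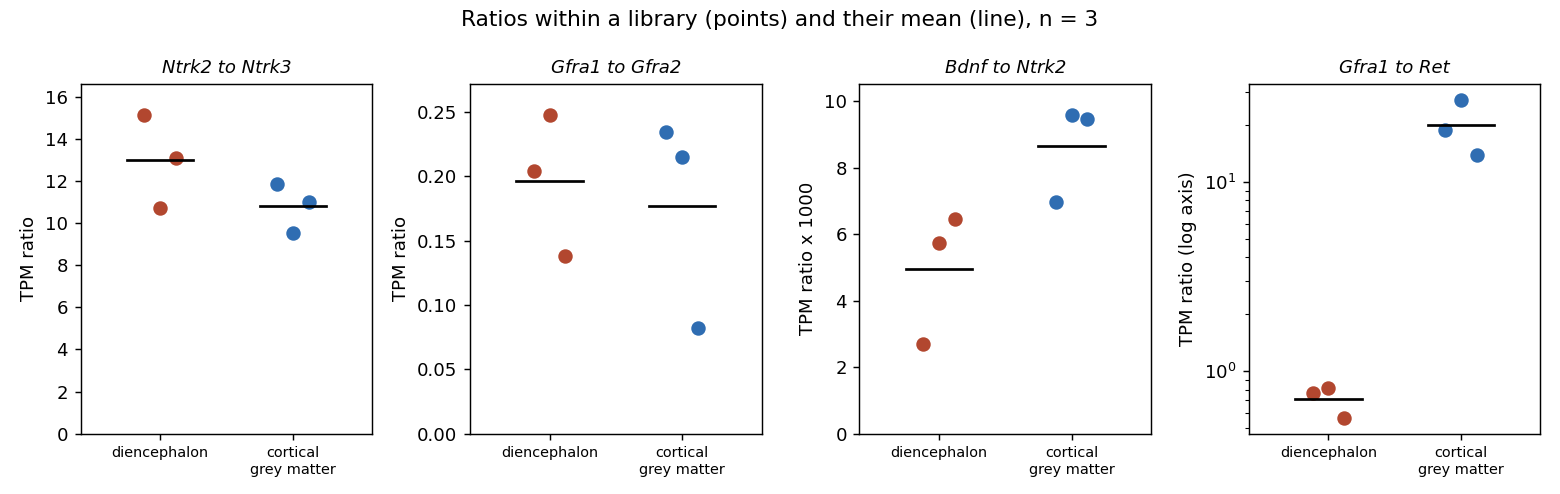
TPM ratios of paired genes within each library (points) with the regional mean (line, n = 3), on linear axes from 0 except the log axis for Gfra1 to Ret, and with Bdnf to Ntrk2 multiplied by 1000. Gfra1 to Ret separates the regions (0.567 to 0.812 against 13.9 to 27.2), and the ratios of Ntrk2 to Ntrk3 and of Gfra1 to Gfra2 overlap.

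Ntrk2, the receptor for BDNF, was the most abundant of the 8 genes and was moderately higher in diencephalon. It was at 2370, 2234 and 2644 CPM in diencephalon and 1955, 1643 and 1576 CPM in cortical grey matter. All diencephalic libraries lay above all cortical ones. The level was 1.40-fold higher (95% interval 1.14 to 1.71), a log2 difference of 0.49 ± 0.14 (SE, edgeR adjusted p = 0.0114), and it was not shown to exceed 1.5-fold. The call was lost when diencephalon replicate 3 was left out (edgeR adjusted p = 0.0739) and likewise without cortical grey matter replicate 2 (0.0647), and over all alternatives the adjusted p ranged from 0.00122 to 0.0739. Relative to the median gene, the log2 difference on the TPM scale was 0.48. The astrocyte marker sum was 1.41-fold lower in diencephalon, but the median log2 difference of these markers was -0.11 and 10 of the 20 did not pass. Their part in the Ntrk2 level was not tested.

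Within the 8 genes Ntrk2 made up 81.8% to 85.2% of the summed TPM in diencephalon and 72.2% to 82.8% in cortical grey matter. The files give a gene length averaged over the transcripts by their estimated share, so this length moves when the use of transcripts moves. For Ntrk2 it was 7119, 7137 and 7121 bases in diencephalon and 7140, 7194 and 7164 bases in cortical grey matter. The values did not overlap, but the means differed by -0.57% (exact permutation p = 0.1, two-sided, the smallest possible). These lengths do not give the share of the truncated and the full-length form, whose coding ends are printed above.

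Ntrk3, the receptor for NT-3, did not pass. It was at 67.8, 88.6 and 86.2 CPM in diencephalon and 69.8, 72.4 and 59.6 CPM in cortical grey matter. Diencephalon replicate 1 lay within the cortical range, and the other diencephalic libraries lay above it. The log2 difference was 0.26 ± 0.16 (edgeR adjusted p = 0.242), with a 95% interval of the fold from 0.949 to 1.51. On the TPM scale the regions did not overlap, with 81.0, 110 and 107 TPM against 75.9, 76.0 and 65.5 TPM. Relative to the median gene the log2 difference there was 0.22 (limma adjusted p = 0.0773). Its share-averaged length was 3182, 3146 and 3143 bases in diencephalon and 3127, 3132 and 3086 bases in cortical grey matter, a difference of 1.34% (exact permutation p = 0.1, two-sided). The ratio of Ntrk2 to Ntrk3 on the TPM scale was 15.1, 10.7 and 13.1 in diencephalon and 11.9, 9.55 and 11 in cortical grey matter, with overlap (exact permutation p = 0.3, two-sided).

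**Figure D4:**
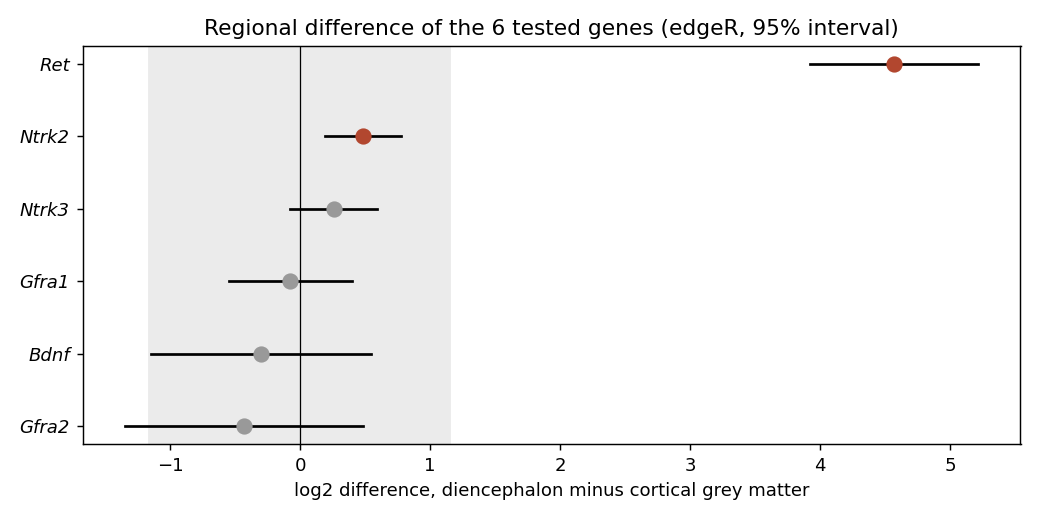
Log2 difference between diencephalon and cortical grey matter with its 95% interval for the 6 tested genes (edgeR), coloured where the adjusted p is under 0.05. The grey band spans the 5th to the 95th percentile of all tested genes (-1.16 to 1.15); Ret, at 4.57, lies outside it and Ntrk2, at 0.49, inside.

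Ngfr, the p75 receptor, was close to the detection limit and did not pass the count filter. It had 3, 15 and 8 counts in diencephalon and 10, 7 and 1 in cortical grey matter, with wide overlap. The difference on the log2(TPM + 1) scale gave an exact permutation p of 0.4 (two-sided). The ratio of summed counts was 1.40, with an exact 95% counting interval of 0.741 to 2.72, so a difference was not detectable at this depth.

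Among the ligands, Bdnf was low in both regions. It had 7, 14 and 18 counts in diencephalon and 17, 16 and 14 in cortical grey matter, or 3.27, 7.38 and 9.41 against 7.42, 8.52 and 8.70 CPM. Diencephalon replicate 1 was lowest and diencephalon replicate 3 highest of all 6 libraries. The log2 difference was -0.30 ± 0.41 (edgeR adjusted p = 0.620), with a 95% interval of the fold from 0.451 to 1.46. It turned to 0.04 without diencephalon replicate 1. For every 1000 TPM of its receptor gene Ntrk2 there were 2.69, 5.75 and 6.45 TPM of Bdnf in diencephalon and 6.97, 9.57 and 9.46 in cortical grey matter. This ratio did not overlap between the regions (exact permutation p = 0.1, two-sided, the smallest possible), and it rests on 7 to 18 Bdnf counts per library. Cortical excitatory neurons, which are known to make BDNF, had a marker sum 4.6-fold lower in diencephalon, and their part in the Bdnf level was not tested.

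Ntf3, which encodes NT-3, had no count in 5 libraries and 2 counts in cortical grey matter replicate 1. With 0 counts, a level of up to 3 counts is allowed, which is 1.44 to 1.63 CPM in the diencephalic libraries, so no difference was detectable.

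The order of levels was set on the TPM scale, which allows genes to be compared. In diencephalon the order was Ntrk2 (1267 ± 117 TPM, SD, n = 3), Gfra2 (99.7 ± 21.7), Ntrk3 (99.2 ± 15.8), Ret (26.7 ± 3.72), Gfra1 (18.9 ± 2.61), Bdnf (6.36 ± 2.89), Ngfr (5.11 ± 3.74) and Ntf3 (0 in each library). Gfra2 and Ntrk3 overlapped, as did Bdnf and Ngfr. In cortical grey matter it was Ntrk2 (782 ± 102), Gfra2 (118 ± 61.1), Ntrk3 (72.5 ± 6.01), Gfra1 (17.6 ± 1.86), Bdnf (6.68 ± 0.35), Ngfr (2.85 ± 1.97), Ret (0.927 ± 0.215) and Ntf3 (0 to 2.46 TPM). Ngfr overlapped with Ret and Ret with Ntf3. By mean, Ret thus had rank 4 in diencephalon and rank 7 in cortical grey matter, while the means of the other 7 genes had the same order. Single libraries did not all keep this order. Gfra2 and Ntrk3 were at 85.8 and 81.0 TPM in diencephalon replicate 1 but at 88.5 and 110 TPM in diencephalon replicate 2.

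The other genes of these pathways were counted over 66 listed genes, of which 52 were tested. Of these 9 rose, 13 fell and 30 did not pass, beside 14.9% and 14.8% of all tested genes. Among the other ligands, Gdnf had 3 counts in diencephalon and none in cortical grey matter, where a group count of up to 3 is allowed by 0. Nrtn, which encodes neurturin, and the receptor genes Gfra3 and Gfral had no count in any library. Gfra4 had 16 and 28 counts. None of these passed the count filter.

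**Figure D5:**
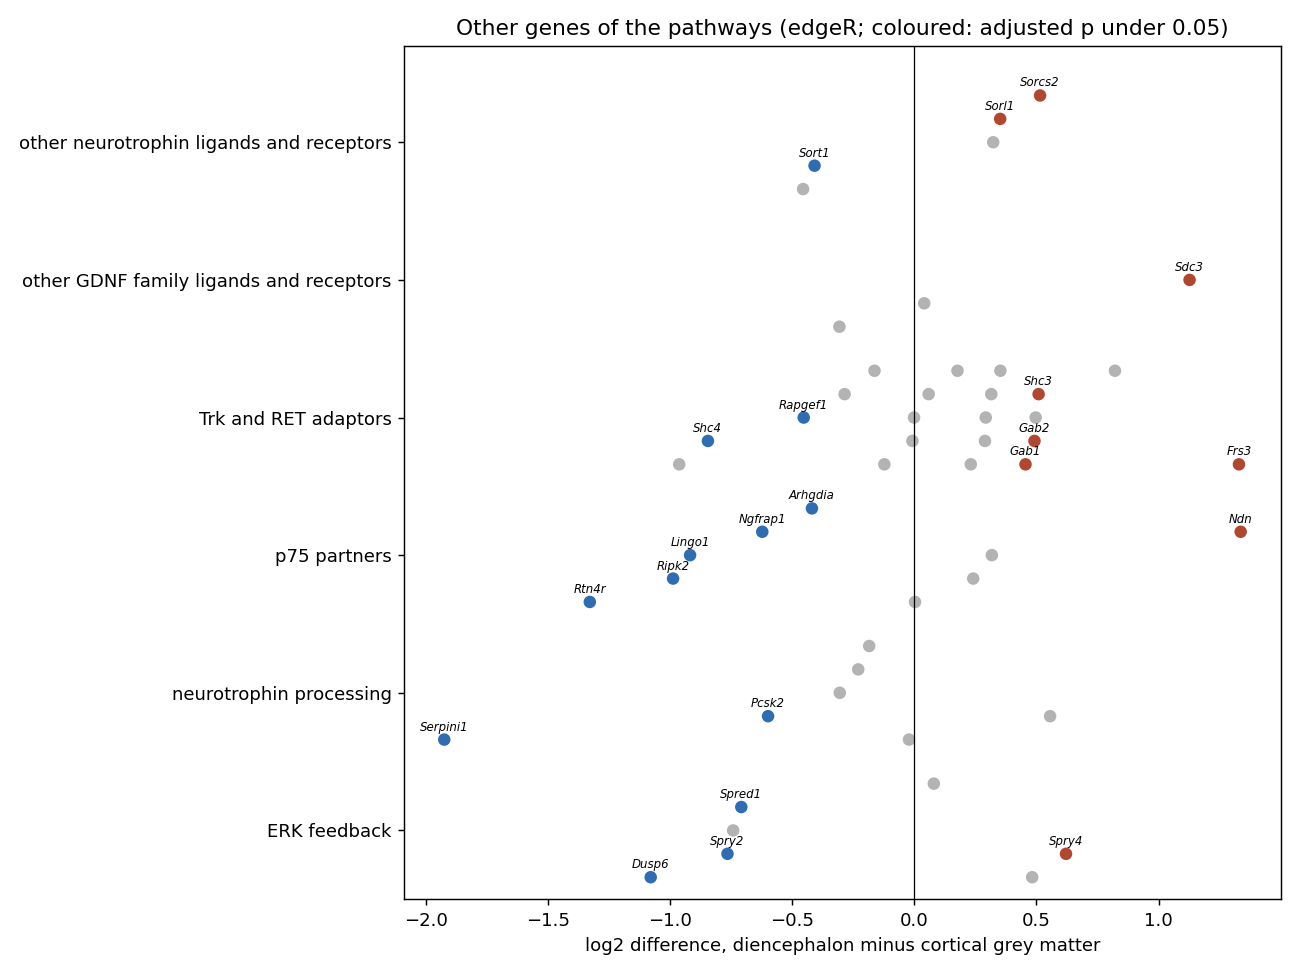
Log2 differences (edgeR) of the 52 tested genes of the surrounding pathways by list, each point a gene, coloured and named where the adjusted p is under 0.05, with the vertical offset within a list for legibility only. Sdc3, Frs3 and Ndn lie furthest to the right and Serpini1, Rtn4r and Dusp6 furthest to the left.

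Among the alternative GDNF receptors only Sdc3 was called, while sorting receptors moved in both directions. Sdc3, which encodes the heparan sulphate proteoglycan syndecan-3, was at 317 ± 15.4 against 144 ± 24.9 CPM, 2.18-fold higher in diencephalon (edgeR adjusted p = 1.30e-06). Ncam1, the cell adhesion molecule that can serve as an alternative GDNF receptor, was at 711 ± 61.4 against 691 ± 102 CPM (edgeR adjusted p = 0.851), and Gas1, a GDNF-binding protein related to the co-receptors, did not pass either (0.580). Of 5 tested sorting receptor genes, 2 rose, Sorcs2 and Sorl1, and Sort1, which encodes the proneurotrophin receptor sortilin, fell. Their adjusted p values were 0.0355, 0.0464 and 0.0168 (edgeR). Among all tested genes 14.9% rose and 14.8% fell. Sorl1 lost its call under 12 of 17 alternatives, Sorcs2 under 6 and Sort1 under 5.

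Of 9 tested partners of p75, 5 fell, 1 rose and 3 did not pass, beside 14.8% lower and 14.9% higher among all tested genes. The median log2 difference of the list was -0.42. Lingo1 and Rtn4r, which encode the p75 co-receptor LINGO-1 and the Nogo receptor, were at 296 ± 8.68 against 560 ± 58.1 CPM and at 23.5 ± 4.05 against 59.4 ± 12.6 CPM. Their adjusted p values were 6.22e-06 and 4.93e-05 (edgeR). Ripk2, a kinase of the receptor-interacting family, was 1.98-fold lower, while Ndn, the imprinted gene for necdin, was 2.52-fold higher. Arhgdia and Ngfrap1 also fell, calls lost under 5 and 7 of 17 alternatives. Cortical excitatory neuron markers summed 4.6-fold and pan-neuronal markers 1.57-fold lower in the same libraries. The pan-neuronal list was mixed: 3 of 10 genes fell, Snap25 with means of 658 against 1543 CPM, Syn1 and Rbfox3, while Tubb3 and Stmn2 rose and 5 did not pass, with a median log2 difference of -0.28. The part of these cells in the changes of the p75 partners was not tested.

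Of 21 tested adaptors of Trk and RET signalling, 4 rose, 2 fell and 15 did not pass, with a median log2 difference of 0.23. Among all tested genes 14.9% rose and 14.8% fell, and nothing is read from the counts of this list. The docking protein gene Gab2 was at 125 ± 1.5 against 88.9 ± 4.21 CPM (edgeR adjusted p = 0.00704). Frs3, which encodes a docking protein of Trk and FGF receptors, was 2.51-fold higher, and Gab1 and the Shc family gene Shc3 were 1.37-fold and 1.42-fold higher. Of these rises, Gab2 passed under all 17 alternatives, and Frs3 lost its call without cortical grey matter replicate 2 (edgeR adjusted p = 0.0513). Gab1 lost its call when diencephalon replicate 1, diencephalon replicate 2 or cortical grey matter replicate 2 was left out (edgeR adjusted p = 0.0726, 0.0557 and 0.0608). Shc3 lost it when diencephalon replicate 2 or the first cortical library was left out (0.145 and 0.0668). Rapgef1 and Shc4 fell, calls lost under 5 and 9 alternatives.

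In the processing list 2 of 7 tested genes fell and none rose, beside 14.8% lower and 14.9% higher among all tested genes. Serpini1, which encodes neuroserpin, the inhibitor of tissue plasminogen activator, was at 34.4 ± 5.90 against 130 ± 14.8 CPM, 3.79-fold lower in diencephalon (edgeR adjusted p = 1.43e-08). The prohormone convertase gene Pcsk2 was 1.51-fold lower, a call lost on the TPM scale (limma adjusted p = 0.0769). Plat, which encodes tissue plasminogen activator, was at 42.0 ± 3.96 against 42.5 ± 5.23 CPM (edgeR adjusted p = 0.947). Furin, the convertase of proneurotrophins, was at 37.5 ± 9.63 against 25.1 ± 7.28 CPM and did not pass (edgeR adjusted p = 0.0888). Cpe, the carboxypeptidase that sorts proBDNF, was at 2891 ± 316 against 3570 ± 651 CPM (0.152).

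The ERK pathway lies downstream of Trk and RET as well as of other receptors. Of its 7 listed feedback genes 3 were lower and 1 higher, beside 14.8% and 14.9% of all tested genes. Spred1 was at 149 ± 13.3 against 243 ± 16.3 CPM and the phosphatase gene Dusp6 at 15.8 ± 3.76 against 33.4 ± 7.38 CPM (edgeR adjusted p = 0.000173 and 0.00212). Spry4 was 1.54-fold higher (edgeR adjusted p = 0.00381). Spry2 fell, a call lost under 7 of 17 alternatives.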

How the data were processed

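Ribosome-bound mRNA was measured in 6 libraries, 3 from each region. RSEM and the mouse build mm9 are named for the authors' processing, per the submitters' processing notes, while version, aligner and strandedness were not given in the sources used here. The deposited files hold expected counts, TPM and FPKM values, and gene lengths averaged over transcripts; FPKM was not used further. No coordinates are given, since the reference here is of another build. Expected counts were rounded, filtered with edgeR's filterByExpr (minimum count of 10), scaled by TMM and fitted with the quasi-likelihood model (edgeR 4.0.16, limma 3.58.1, DESeq2 1.42.0, R 4.3.3), with 1 term, region, and Benjamini-Hochberg adjustment over 10568 genes at 0.05. The ribosomal RNA precursor Rn45s was kept. It made up 3.52% to 4.48% of counts in diencephalon and 1.77% to 2.23% in cortical grey matter, without overlap of the regions. SEs came from the F statistic. Single values were compared by exact two-sided permutation, with a smallest possible p of 0.1. Deposited TPM values were tested on log2(TPM + 1) and used to compare genes. The labels name no molecular identifiers for the amplified cDNA, and counting intervals cover counting error only.

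Genes were named by a rule: all 8 members, up to 4 genes per pathway list with the smallest adjusted p, and the 3 genes nearest to each tested member; Arhgdia, Ngfrap1, Rapgef1, Shc4, Plat, single marker genes and the undetected ligands and receptors were added after their values were seen. Some listed genes are not reported here. Members and lists were chosen with earlier results of these data known. Alternatives were RLE scaling, DESeq2, limma voom, a minimum count of 30, no count filter, a replicate block, limma on log2(TPM + 1) and log2(TPM + 0.1), a length-trend offset, a term marking libraries low in Y-linked transcripts, and leaving out each library. The fit was tested on simulated counts.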

Additional observations from a re-analysis of the deposited data

How the results depend on the processing

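Ret and Ntrk2 kept their direction under all 17 alternatives, with log2 differences of 3.85 to 4.72 and 0.39 to 0.70. The regional log2 difference varied with gene length over the tested genes, with a fitted, centred trend from -0.76 to 0.81. With this trend removed, Ntrk2 was at 0.39 (edgeR adjusted p = 0.0412) and Ret at 4.47. Of the named pathway genes, Sorcs2, Sorl1 and Ngfrap1 then lost their calls (edgeR adjusted p = 0.0824, 0.155 and 0.370). The number of the 8 genes called higher was 1 to 2 over the fits that left out a library, being 1 when diencephalon replicate 3 or the second cortical library was left out, where Ntrk2 lost its call; the cause was not tested. The number of all genes called lower fell from 1560 to 958, 908 and 920 with limma on log2(TPM + 1), on log2(TPM + 0.1) and on log2(TPM + 1) without a filter, while 2118, 1991 and 1978 were higher. These fits tested 14296, 14296 and 16621 genes, against 10568 in the main fit. Some values that did not pass changed sign. Gfra1 was at 0.095 on log2(TPM + 1), with or without a filter, and at 0.10 on log2(TPM + 0.1). Leaving out each library gave log2 differences of -0.63 to 0.037 for Bdnf and -0.67 to 0.045 for Gfra2, and on the log2(TPM + 1) scale -0.41 to 0.20 for Bdnf, -0.010 to 0.15 for Gfra1, -0.38 to 0.24 for Gfra2 and -0.90 to 0 for Ntf3, whose 2 counts lie in a single library. With a minimum count of 30 Bdnf was not tested. The log2 ratio of Gfra1 to Gfra2 ran from -0.23 to 0.53. With the replicate number as a block, 1507 genes were higher and 1531 lower, Ret and Ntrk2 were called, and Ntrk2 was at 0.49. Deviations of same-numbered libraries correlated at 0.059, -0.099 and 0.004, so the numbers were not taken as pairs. Depth limits Ngfr, Ntf3, Bdnf and the cortical Ret level, each with at most 18 counts per library.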

Other observations

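For the tested genes other than Ret, the genes with the most similar levels over the 6 libraries were found by the same distance. Nearest to Ntrk2 were Trpm7, an ion channel with a kinase domain (root mean square distance of 0.051 in centred log2 CPM), Clcn3, a chloride-proton exchanger (0.056), and Ctns, the lysosomal cystine transporter (0.063). Trpm7 was at a mean of 137 CPM in diencephalon and 101 CPM in cortical grey matter. Nearest to Gfra2, whose highest level was in cortical grey matter replicate 3, was the contactin gene Cntn3, at a larger distance of 0.15 and with means of 111 and 152 CPM. Tmem55b and Igbp1 followed at 0.16 and 0.17. Nearest to Gfra1 were the integrin subunit gene Itgb1 (0.032), Nfs1 (0.041) and Srrt (0.042). Nearest to Ntrk3 were the phosphatase subunit gene Ppp1r12c (0.035), Klhl23 (0.056) and the proteasome assembly gene Psmd5 (0.057). Nearest to Bdnf were the RNA polymerase subunit gene Polr3k (0.051), Gnb4 (0.098) and the ribosomal protein gene Rps26 (0.12). With 6 libraries in 2 regions these distances are a description and carry no test.

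The share-averaged transcript length also separated the regions for Gfra1, with 4575, 4600.5 and 4646 bases in diencephalon and 4424, 4564 and 4552 bases in cortical grey matter, a difference of 2.08% (exact permutation p = 0.1, two-sided, the smallest possible). For Ret it was 7341 bases in cortical grey matter and 7341, 6636 and 7326 bases in diencephalon, where the lowest value belonged to replicate 2.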
